A study of Homo sapiens with 16 samples.

Results

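KIF19, BTBD17 and GPR142 are neighbouring protein-coding genes on the long arm of human chromosome 17, in band 17q25. Their transcription start sites were selected on ChIP reads of histone H3 lysine 9 dimethylation (H3K9me2), which in 0.1% serum were lower there in LEO1 knockout (ΔLEO1) than in wild-type (WT) fibroblasts. The authors counted reads in windows reaching 1 kb to each side of every annotated start. Every window carrying one of the 3 gene symbols was kept, which gave 8 distinct windows (10 rows with repeated starts) of 237274 distinct windows in the series. KIF19 had 5 windows, BTBD17 had 1 and GPR142 had 2. Overlapping windows share reads, so the 8 windows form 4 separate loci and are not 8 independent measurements.

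All samples came from BJ-5ta, a line of human skin fibroblasts kept dividing by telomerase, grown in RPMI medium with fetal bovine serum. WT and ΔLEO1 cells were cultured either in 10% serum, in which they proliferate, or for 10 days in 0.1% serum, which brings fibroblasts into quiescence. The ΔLEO1 cells were made with CRISPR/Cas9 and are 1 clone, so what belongs to the clone and what belongs to the loss of LEO1 cannot be told apart. Reads at the LEO1 start windows were not examined here, so the loss of LEO1 was not checked in these libraries. The authors reported that LEO1 protein was undetectable in this clone by Western blot, and they tested the deletion by PCR. Each of the 4 combinations had 2 ChIP libraries, A and B, and 2 input libraries, which are sonicated DNA sequenced without antibody. The labels name the antibody target only as H3, and the study's methods give H3K9me2. The ΔLEO1 10% ChIP library A held 54 reads over all start windows, none of them in these 8 windows, and was left out, so ΔLEO1 in 10% serum rests on 1 ChIP library. The other 7 ChIP libraries held 2153836 to 3696942 reads in start windows and the 8 inputs 3267811 to 9238282. Nothing states that A and B were separate cultures, so p-values measure the spread between these libraries, which may be technical.

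H3K9me2 is a mark of silent chromatin, laid down in broad domains over genes that a cell type does not use and along the nuclear periphery. LEO1 is a subunit of the PAF1 complex, which travels with RNA polymerase II and acts in transcription elongation. KIF19 is a kinesin-8 motor that moves to the tips of motile cilia and shortens microtubules there, which limits the length of cilia. BTBD17 is a little studied protein with a BTB domain. GPR142 is a G protein-coupled receptor that senses aromatic amino acids and is best known from the islets of the pancreas.

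In hg38 coordinates, KIF19 starts were centred at chr17:74326210, 74326226, 74326231 and 74326257, which overlap, and at 74348590, an inner start within the gene. The BTBD17 start was at 74361868, on the minus strand, and the GPR142 starts at 74367458 and 74367506. The windows together spanned chr17:74325210-74368506, or 43.3 kb. RefSeq (GRCh38.p14) places KIF19 at 74326226 to 74355820, BTBD17 at 74356416 to 74363327 and GPR142 at 74367506 to 74372600. On the minus strand the RefSeq start of BTBD17 is thus 74363327, which the BTBD17 window, 74360868 to 74362868, does not reach. The start region of GPR142, from 250 bases before to 50 bases after its RefSeq start, is shown because it lies inside both GPR142 windows, where the lowest ΔLEO1 counts were measured. It is chr17:74367256-74367555, plus strand, and every CG dinucleotide, the site of DNA methylation, is in capitals. KIF19 and BTBD17 start regions are not shown.
GPR142 start region: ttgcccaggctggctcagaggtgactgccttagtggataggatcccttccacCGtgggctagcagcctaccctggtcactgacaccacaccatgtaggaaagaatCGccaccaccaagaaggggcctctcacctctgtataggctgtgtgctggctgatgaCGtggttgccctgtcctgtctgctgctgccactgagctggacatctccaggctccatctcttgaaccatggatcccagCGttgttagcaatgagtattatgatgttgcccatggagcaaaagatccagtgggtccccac

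These 300 bases held 4 CG dinucleotides, a sequence that reads the same on both strands, against a median of 14 over 35116 RefSeq promoters of the same length. At least 1 CG was present in 96.0% of those promoters, and 29.6% of them held 4 or fewer. G and C made up 55.7% of the GPR142 start region, against a median of 58.7%. Over the 8 other RefSeq promoters matched to genes of the interval, the count was 16 at RPL38, 30, 6 and 7 at TTYH2, 22 at DNAI2, 8 and 14 at CD300A and 6 at CD300LB.

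In WT cells all 4 loci lay above input. Levels are given as CPM, the reads of a window scaled to the start-window reads of its library after TMM normalization, and the ratio of ChIP CPM to input CPM takes off differences in how well a window is sequenced. At the first KIF19 start this ratio was 4.31 in WT 10% serum and 4.14 in WT 0.1% serum. It was 4.88 and 2.94 at the inner KIF19 start. BTBD17 had ratios of 3.59 and 3.11. GPR142 had 5.23 and 2.83. The median over 205536 distinct windows was 0.875 in 10% serum and 0.925 in 0.1% serum. The 4 loci lay between percentiles 96.7 and 99.7 of those windows. The choice of the loci used the 0.1% serum reads, which favours windows high in WT there. In WT fibroblasts, therefore, all 4 were among the start windows richest in H3K9me2. This was not particular to the 3 genes, since some neighbouring starts had ratios as high or higher. GPRC5C, to the right of GPR142, had 8.13 in 10% serum and 3.55 in 0.1% serum at its start 74443077. At its start 74431384 it had 4.55 and 4.76. Other neighbours lay below input, such as RPL38 with 0.283 and 0.543.

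In ΔLEO1 cells the same ratios were lower. The first KIF19 start had 1.40 in 10% serum and 0.777 in 0.1% serum. The inner KIF19 start had 2.36 and 1.11. BTBD17 had 0.442 and 0.973, and GPR142 had 0.414 and 0.568. These values lay between percentiles 24.6 and 89.3 of the same windows, the highest being the inner KIF19 start in 10% serum. Lists of genes from elsewhere in the genome are given for scale. Over 13 genes of other cell types, such as those for albumin, insulin and rhodopsin, the median ratio was 1.26 and 1.69 in WT and 1.84 (over 12 genes) and 1.44 in ΔLEO1, for 10% and 0.1% serum. Over 12 fibroblast genes, such as collagens, fibronectin and vimentin, it was 0.780 and 0.782 in WT and 0.553 and 0.664 in ΔLEO1. DNA reads hold no RNA level, so these lists describe chromatin only and do not check the cell type.

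**Figure D1:**
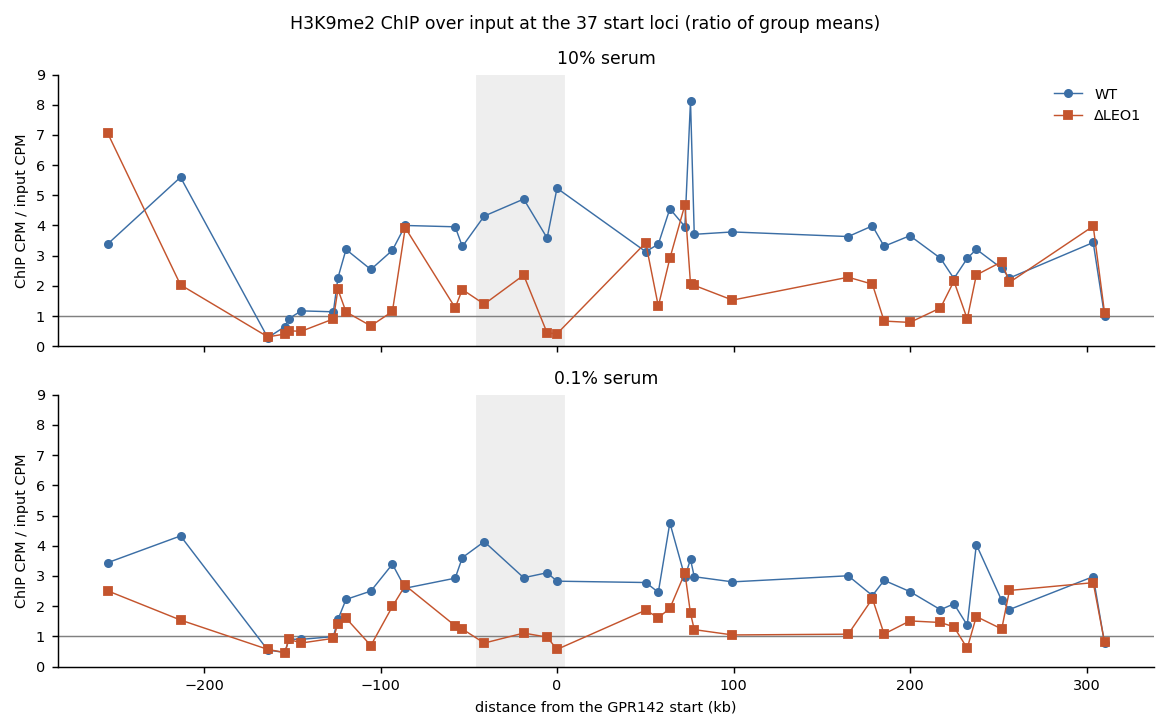
Ratio of mean ChIP CPM to mean input CPM (y axis) at the 37 separate start loci of the interval against distance from the GPR142 start in kb (x axis), WT in blue and ΔLEO1 in orange, 10% serum above and 0.1% serum below. The shaded stretch holds the KIF19, BTBD17 and GPR142 starts, where WT lay between 2.83 and 5.23 and ΔLEO1 between 0.414 and 2.36; the horizontal line marks equal ChIP and input, and the lines joining points only guide the eye.

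The values by library begin with 10% serum. The loci were chosen on 0.1% serum, but the lower level of GPR142 in 10% serum was already known then. At the GPR142 start 74367458, WT libraries A and B held 34 and 36 ChIP reads (12.98 and 11.6 CPM) and the ΔLEO1 library held 3 (1.40 CPM). At BTBD17 the WT libraries held 41 and 34 reads (15.7 and 11.0 CPM) and ΔLEO1 held 3 (1.40 CPM). ΔLEO1 lay far below both WT libraries at each.
At the KIF19 start 74326226 the WT libraries held 37 and 35 reads (14.1 and 11.3 CPM) and ΔLEO1 held 9 (4.21 CPM). At the inner KIF19 start 74348590 they held 42 and 40 (16.0 and 12.9 CPM) and ΔLEO1 held 15 (7.02 CPM). The ΔLEO1 level was thus 0.105 of the WT mean at BTBD17, 0.114 at GPR142, 0.331 at the first KIF19 start and 0.485 at the inner one. From pooled reads, exact intervals at 95% for these ratios, which cover counting error only, ran from 0.0216 to 0.325 at BTBD17 and from 0.0231 to 0.349 at GPR142. At KIF19 they ran from 0.147 to 0.671 at the first start and from 0.262 to 0.855 at the inner start.

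In edgeR's quasi-likelihood test over 159524 windows, with the lone ΔLEO1 library assumed to vary like the other groups, BTBD17 and GPR142 fell in 10% serum and KIF19 did not pass. BTBD17 had a log2 fold change of -2.72 (SE 0.60, adjusted p = 0.00259, lower in 1 of 1 ΔLEO1 libraries). GPR142 had -2.62 (SE 0.61, adjusted p = 0.00338) at 74367458 and -2.61 (SE 0.61, adjusted p = 0.00378) at 74367506. The first KIF19 start had -1.44 (SE 0.45, adjusted p = 0.144) and the inner one -0.96 (SE 0.38, adjusted p = 0.384). So 3 of 8 windows, in 2 of 4 loci, were called lower, while 0.0251% of all tested windows were (40, in 11 separate loci; 0.0295% in either direction). By p-value BTBD17 ranked 2 and the GPR142 windows 14 and 17 among 140888 distinct windows. All 8 windows had an unadjusted p under 0.05 in that direction, as did 4.82% of all tested windows. ΔLEO1 lay below both WT libraries at all 8, and at 36.6% of all tested windows. The lower level of GPR142 in 10% serum was already known when the windows were chosen, so these calls are not independent support. DESeq2 called none of the 8 windows (adjusted p = 1.00 for BTBD17 and GPR142), with 0 windows called in all and 1839 at an unadjusted p under 0.05, against 13390 in edgeR. Without WT library A, BTBD17 had an adjusted p of 0.0687 in edgeR.

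The choice of library size moved all windows together. TMM scaling sets the bulk of start windows near equal. The fly chromatin added by the authors as a spike-in was not used here, so a change shared by all windows is not seen. With the spike-in, the authors reported a global rise of H3K9me2 in quiescent ΔLEO1 cells. The ratios here are relative to the bulk of windows. With totals over the peak regions as library sizes instead, the median log2 fold change of all windows moved from -0.024 to 0.16 in 10% serum and from -0.008 to 0.26 in 0.1% serum. The calls then split into 24 higher and 21 lower in 10% serum, against 7 higher and 40 lower with TMM, and into 2062 higher and 147 lower in 0.1% serum, against 130 higher and 424 lower. All 8 windows stayed negative in both sera under this scaling. BTBD17 (-2.52, adjusted p = 0.0173 in edgeR) and GPR142 (-2.43, adjusted p = 0.0245 at 74367458) remained called in 10% serum. In 0.1% serum 4 of the 8 windows stayed past the threshold and the first KIF19 start, at -0.99, did not.

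**Figure D2:**
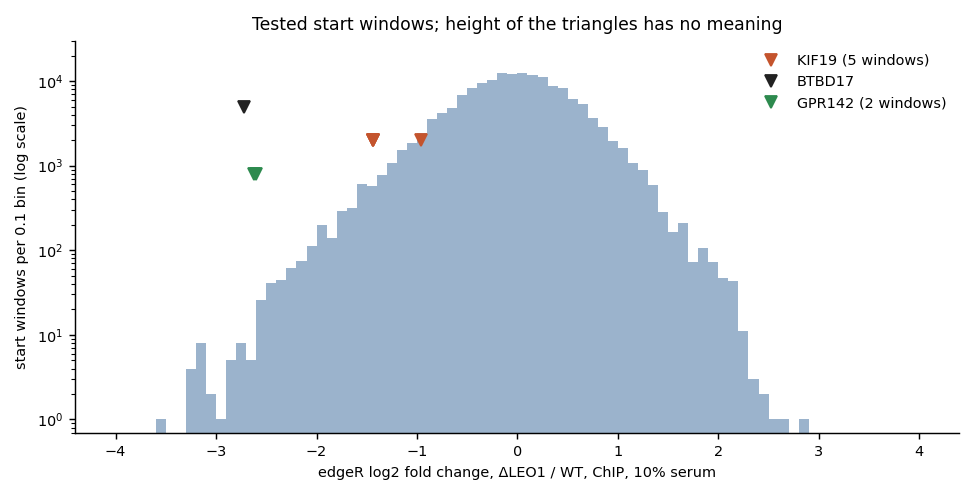
Number of start windows (y axis, log scale) by edgeR log2 fold change of ΔLEO1 over WT in 10% serum ChIP (x axis, bins of 0.1), over 159524 tested windows. Triangles mark the KIF19, BTBD17 and GPR142 windows at -0.96 to -2.72; their height has no meaning, and BTBD17 and GPR142 lie in the sparse left tail.

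In 0.1% serum, the condition that chose the loci, the values are a description. GPR142 (start 74367458) had 31 and 24 reads in WT A and B (9.36 and 8.82 CPM) and 8 and 4 in ΔLEO1 A and B (2.13 and 1.58 CPM). BTBD17 had 37 and 25 reads in WT (11.2 and 9.19 CPM) and 9 and 7 in ΔLEO1 (2.40 and 2.77 CPM). Both ΔLEO1 libraries lay below both WT libraries.
The first KIF19 start (74326226) had 32 and 22 reads in WT (9.67 and 8.09 CPM) and 13 and 8 in ΔLEO1 (3.46 and 3.16 CPM). The inner KIF19 start (74348590) had 45 and 34 reads in WT (13.6 and 12.5 CPM) and 15 and 8 in ΔLEO1 (4.00 and 3.16 CPM). ΔLEO1 levels were 0.204 of WT at GPR142, 0.254 at BTBD17, 0.274 at the inner KIF19 start and 0.373 at the first one. The groups did not overlap at any of the 8 windows, nor at 21.1% of all tested windows with ΔLEO1 lower. The edgeR log2 fold changes ran from -1.23 to -1.98, and all 8 windows were past the threshold, as chosen, where 0.266% of windows were called lower and 0.347% either way. In both sera at once, ΔLEO1 lay below WT at all 8 windows and at 10.0% of all tested windows. Whether the fold change differed between the sera was not tested, since 0.1% serum chose the loci.

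**Figure D3:**
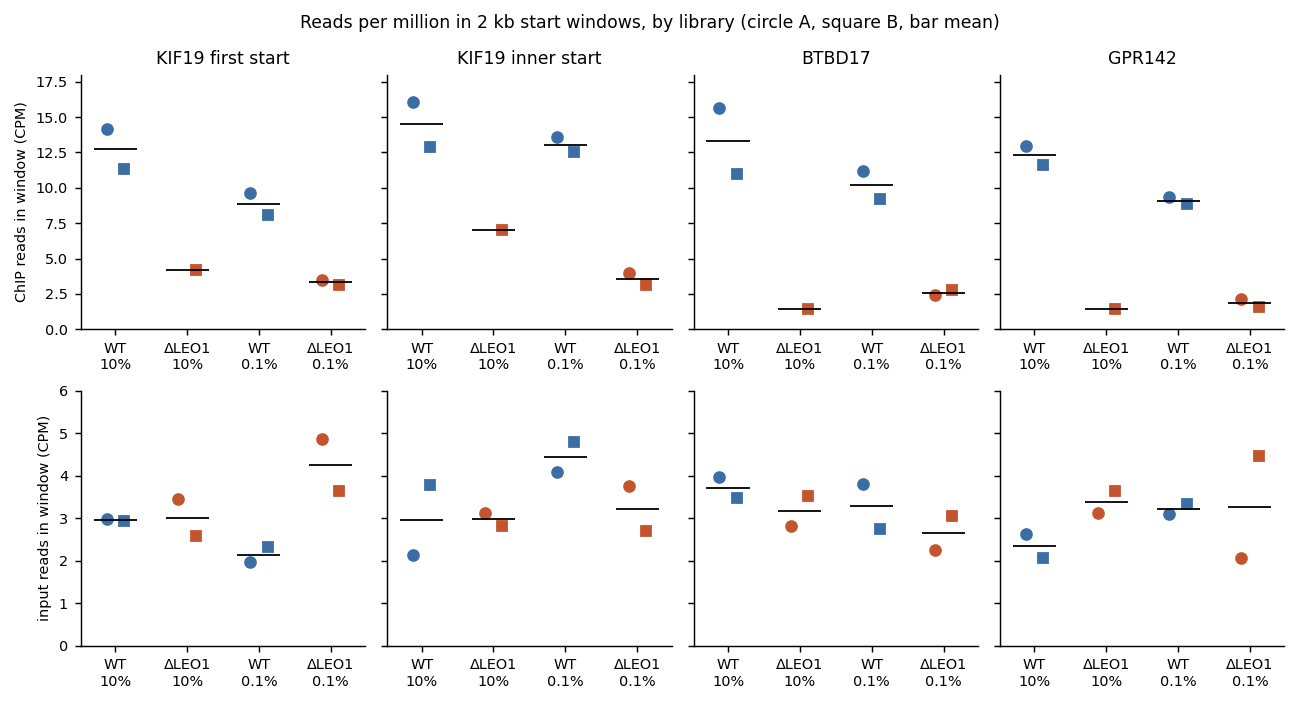
CPM (y axis) by genotype and serum (x axis) in 1 window for each of the 4 loci, ChIP in the upper row and input in the lower, each point a library (circle A, square B) and each bar the group mean, WT in blue and ΔLEO1 in orange. ΔLEO1 ChIP points lie at 1.40 to 7.02 CPM, below every WT ChIP point of the same locus and serum, and input points overlap or cross between genotypes except at a few places such as the first KIF19 start in 0.1% serum.

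Summed over the 4 loci, WT ChIP held 52.8 ± 8.50 CPM (SD, n = 2) in 10% serum and ΔLEO1 held 14.0 in its 1 library. In 0.1% serum WT held 41.2 ± 3.67 CPM and ΔLEO1 11.3 ± 0.935 (SD, n = 2 each). The ratio of ΔLEO1 to WT was 0.266 in 10% serum and 0.275 in 0.1% serum.

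The inputs ask whether DNA at the locus was itself lower in ΔLEO1. No such fall was seen in the sums: the same 4 loci held 11.7 and 12.2 CPM in WT 10% inputs and 12.5 and 12.6 in ΔLEO1 10% inputs. In 0.1% serum the sums were 12.9 and 13.2 CPM in WT and 12.9 and 13.9 in ΔLEO1. The ratio of ΔLEO1 to WT was 1.05 and 1.03. All input sums thus lay within a narrow range while the ChIP sums differed several-fold.
At single windows the inputs varied more. GPR142 (74367458) held 16 and 19 input reads in WT 10%, 10 and 31 in ΔLEO1 10%, 22 and 23 in WT 0.1% and 11 and 38 in ΔLEO1 0.1%, and its levels overlapped between genotypes in 0.1% serum. In 10% serum both ΔLEO1 inputs (3.13 and 3.65 CPM) lay above both WT inputs (2.64 and 2.06 CPM) at that start, the opposite direction from ChIP. The first KIF19 start in 0.1% serum went the other way from ChIP, with 14 and 16 reads in WT (1.97 and 2.32 CPM) and 26 and 31 in ΔLEO1 (4.87 and 3.65 CPM). Its log2 fold change there was 0.87 (SE 0.34, adjusted p = 0.807), which did not pass.
With both sera in 1 contrast, 4 ΔLEO1 against 4 WT inputs, the 8 windows had log2 fold changes from -0.28 to 0.43 with adjusted p from 0.892 to 0.986 in edgeR. ΔLEO1 inputs lay below WT inputs without overlap at 0 of the 8 windows in 10% serum (18.4% of all windows) and at 1 in 0.1% serum, the inner KIF19 start (18.5% of all windows). None of the 8 was called in any input contrast. The backgrounds were 0.0176% of 238006 windows with both sera together, 0.0021% in 10% serum and 0.0% in 0.1% serum, where edgeR called 0 (12688 at an unadjusted p under 0.05) and DESeq2 called 0. The whole interval of start windows showed the same: summed input in ΔLEO1 stood within -0.017 to 0.071 (log2) of the WT mean, while summed ChIP stood at -0.72 in 10% serum and at -0.71 and -0.88 in 0.1% serum.

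Taking the input difference off the ChIP difference in 10% serum left GPR142 past the threshold, at a log2 fold change of -3.40 (SE 0.74) for 74367458 and -3.38 (SE 0.75) for 74367506, both with an adjusted p of 0.0232 in edgeR. BTBD17 had -2.84 (SE 0.74, adjusted p = 0.191). KIF19 had -1.49 (SE 0.61, adjusted p = 0.634) at its first start and -0.94 (SE 0.53, adjusted p = 0.793) at its inner start. Hence 2 of 8 windows were called, against 0.00589% of 237580 windows (14, in 2 separate loci, of which GPR142 is 1). The call was lost without WT 10% ChIP A, without WT 10% ChIP B, without WT 10% input B and without ΔLEO1 10% input B. This contrast holds the same 10% serum ChIP reads as above, so the GPR142 call is not independent support. GPR142 input in 10% serum was higher in ΔLEO1 (log2 fold change 0.55 at 74367458), which adds to the difference.

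To see how far the lower H3K9me2 reached, the 78 distinct windows of the surrounding interval were reduced to 37 separate loci, each given by its window with most ChIP reads. The 33 neighbouring loci comprised 14 on the KIF19 side and 19 on the GPR142 side, and they were lower in ΔLEO1 in ChIP by a smaller factor. In 10% serum the median ratio of ΔLEO1 to WT was 0.598 over the neighbours and 0.223 over the 4 loci, and in 0.1% serum it was 0.672 and 0.264. Of the 30 neighbouring loci tested, 28 had a negative log2 fold change in 10% serum (median -0.65) and 27 in 0.1% serum (median -0.60), against medians of -0.024 and -0.008 over all tested windows. In input the neighbours had median ratios of 1.00 and 1.03. Neighbours and chosen loci were not compared by a test, since the loci were picked for their low values.

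Summed levels gave the same picture on both sides. Loci left of KIF19 had a ΔLEO1 to WT ratio of 0.664 in 10% serum and 0.680 in 0.1% serum, and loci right of GPR142 had 0.616 and 0.618. Input ratios were between 0.987 and 1.06. In 10% serum 0 of 58 neighbouring windows were called, the lowest adjusted p being 0.0897 at CD300C, a receptor of myeloid cells (ratio 0.312). In 0.1% serum 7 of 58 were called lower and none higher, where 0.266% of all windows were called lower, and 4 of these 7 were overlapping CD300A windows.

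An unbroken run of 9 loci, the 4 chosen ones included, had ΔLEO1 below WT in every library of both sera. Over all tested windows, 10.0% met that condition. The run began 57.7 kb before the GPR142 start, at the start of a gene known only as ENSG00000266106. It ended 63.9 kb after the GPR142 start, at a start of GPRC5C. The outer starts of the run thus lay 122 kb apart, but levels between start windows were not measured. No locus lay between GPR142 and RNA5SP448, 50.2 kb away. The run was broken on the GPRC5C side by the next GPRC5C start, 74439896, with a ratio of 0.849 in 0.1% serum. In 10% serum alone, with 1 ΔLEO1 library, the run began at the same start, held 21 loci over 295 kb and ended 237 kb after GPR142, and 36.6% of all tested windows met that condition. Its left end lay within DNAI2, which encodes an intermediate chain of the dynein arms of motile cilia. The nearest DNAI2 start to KIF19, 74313844, had 11.8 and 11.3 CPM in WT 10%, 6.55 in ΔLEO1 10%, 10.6 and 9.56 in WT 0.1%, and 4.53 and 3.56 in ΔLEO1 0.1%. It was called lower in 0.1% serum (ratio 0.402, adjusted p = 0.0355 in edgeR) and not in 10% serum (ratio 0.566, adjusted p = 0.584). Another DNAI2 start, 74281512, which ended the run on that side, had ratios of 0.918 and 0.892.
Further left, TTYH2, a gene of a tweety-family membrane protein, had ratios near 1 at its start 74215616, 0.881 in 10% serum and 1.09 in 0.1% serum, and lower ones at its last start 74247958, 0.375 and 0.832. At 74215616, and at RPL38, a ribosomal protein gene that all cells use, H3K9me2 in WT was at or below input: the ratio of ChIP to input was 0.918 and 0.907 at TTYH2 and 0.283 and 0.543 at RPL38. RPL38 ChIP levels were 1.10 and 1.04 of WT and too low to be tested.
On the other side, the nearest locus after GPR142 was RNA5SP448, a 5S ribosomal RNA pseudogene 50.2 kb away. It had 11.8 and 11.9 CPM in WT 10% and 11.2 in ΔLEO1 10%, a ratio of 0.945, so that WT and ΔLEO1 were close. In 0.1% serum it had 8.16 and 15.8 CPM in WT and 6.40 and 3.56 in ΔLEO1, a ratio of 0.415 (adjusted p = 0.0430 in edgeR). The next gene, GPRC5C, an orphan receptor of class C, had 5 loci with ratios of 0.375 to 0.653 in 10% serum and 0.504 to 0.849 in 0.1% serum, and no call.

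Beyond the run, part of the loci were again lower. Over all neighbours, those inside the run included, ΔLEO1 lay below WT without overlap in both sera at 19 of 33. These were 13 of the 19 loci right of GPR142 and 6 of the 14 left of KIF19. Over all tested windows the share was 10.0%. ENSG00000236770, 185 kb from GPR142 among the CD300 genes, had ratios of 0.229 in 10% serum and 0.368 in 0.1% serum, called in 0.1% serum (adjusted p = 0.0318) and not in 10% serum (adjusted p = 0.0902). CD300A, an inhibitory receptor of leukocytes 99.4 kb away, had 0.475 and 0.378, called in 0.1% serum (adjusted p = 0.0156). In 10% serum 11 of the 33 neighbours had ratios below the highest among the chosen loci, 0.485 at the inner KIF19 start. In 0.1% serum 3 did, the highest there being 0.373 at the first KIF19 start. In 10% serum the highest ratios were at the outer ends of the interval, 1.65 at the farthest right start, ENSG00000264659, and 1.56 at the farthest left one, of LINC02074. In 0.1% serum they were at TTYH2, with 1.14 at its start 74240800 and 1.09 at 74215616.

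**Figure D4:**
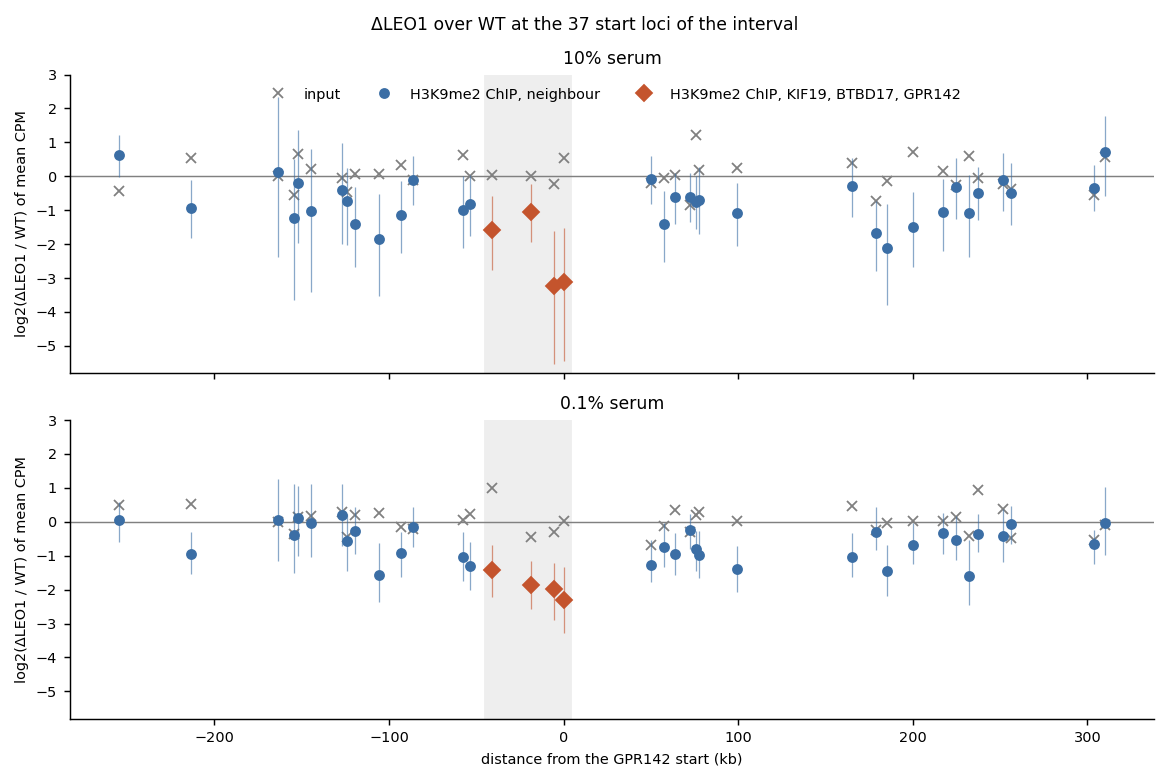
Log2 ratio of mean CPM, ΔLEO1 over WT (y axis), at the 37 start loci against distance from the GPR142 start in kb (x axis), 10% serum above and 0.1% serum below. ChIP is shown as orange diamonds for KIF19, BTBD17 and GPR142 (shaded) and as blue points for neighbours, with exact 95% counting intervals of the ratio of pooled reads as vertical lines, and input as grey crosses; input scatters around 0 while ChIP lies below 0 at nearly all loci, lowest at BTBD17 and GPR142 in 10% serum.

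The authors' peak list had 8 merged regions in the interval and 1 within the 3 genes, in intron 2 of KIF19 at chr17:74338514-74339384, 12723 bases after the KIF19 start. This region lies between the 2 KIF19 loci and shares no bases with any of the 8 windows. It had 24 and 9 ChIP reads in WT 10%, 2 in ΔLEO1 10%, 22 and 10 in WT 0.1%, and 4 and 2 in ΔLEO1 0.1%. ΔLEO1 was below WT in every library, with ratios of 0.187 in 10% serum and 0.227 in 0.1% serum. The inputs held 3 and 14, 4 and 13, 4 and 6, and 4 and 14 reads in the same order of groups (WT 10%, ΔLEO1 10%, WT 0.1%, ΔLEO1 0.1%), so the genotypes overlapped there. At such low counts the edgeR test over 16092 regions did not pass, with a log2 fold change of -1.80 (SE 1.11, adjusted p = 0.652) in 10% serum and -1.63 (SE 0.77, adjusted p = 0.345) in 0.1% serum. Of the 8 regions of the interval, ΔLEO1 lay below WT without overlap at 5 in 10% serum (36.5% of all regions), at 3 in 0.1% serum (19.4%) and at 2 in both (8.43%). None of the 8 regions was called in either serum, where 0.0% of all regions were called lower in 10% serum (0 called and 1127 at an unadjusted p under 0.05 in edgeR, 0 called in DESeq2) and 0.0497% in 0.1% serum.

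Genes with related functions were counted in the same contrasts. The lists were chosen with earlier results of these data known, and each gene is given by its window with most ChIP reads. Of 18 motile cilium genes tested, such as the axonemal dyneins, 0 were called in either serum, with 11 of 18 lower and a median log2 fold change of -0.14 in 10% serum and 9 of 18 lower and -0.02 in 0.1% serum. Of 6 kinesin-8 and kinesin-13 genes, 0 were called, with medians of 0.25 and -0.11. Of 14 receptors for metabolites and amino acids, 0 were called in 10% serum (median 0.03) and 1 in 0.1% serum (median 0.08). That one was GPR139, the closest relative of GPR142, with log2 fold changes of -0.87 (adjusted p = 0.545) in 10% serum and -2.37 (adjusted p = 8.23e-07) in 0.1% serum. Of 7 CD300 genes, most of which lie in the interval, 0 were called in 10% serum (median -0.29) and CD300A was in 0.1% serum (median -0.18). Fibroblast genes had medians of 0.21 and 0.13 over 7 tested, and genes of other cell types 0.20 and -0.05 over 11, with 0 called in both lists and sera. The share called over all windows was 0.0295% in 10% serum and 0.347% in 0.1% serum.

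The inner KIF19 start, the chosen window with most ChIP reads, served to find start windows elsewhere with a like pattern over the 7 ChIP libraries. By Pearson's r of log2 CPM, TACR3, a tachykinin receptor, had 0.995, PCSK2, a prohormone convertase, 0.994, NAP1L5 0.993, GRM2, a glutamate receptor, 0.992 and TRAV4, a T cell receptor segment, 0.990. Pearson's r leaves out the size of a change. The log2 fold changes of these genes ran from -0.50 (GRM2) to -1.11 (TRAV4) in 10% serum. In 0.1% serum they ran from -0.83 (GRM2) to -1.69 (TRAV4). The inner KIF19 start had -0.96 and -1.66. The other 7 chosen windows had r of 0.865 to 0.959 with the inner KIF19 start. The 7 libraries share 1 genotype contrast, and 684 of 28576 symbols had r over 0.9.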

How the data were processed

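Counts in 2 tables were deposited by the authors: raw read counts per library in start windows and in merged peak regions, without normalization, which per the methods came from csaw. The submitters' processing notes list bcl2fastq 2.20.0.422, STAR 2.7.10a, HOMER and the builds hg38 and dm6. Counts were tested over the whole table with edgeR 4.0.16 (R 4.3.3; filterByExpr, minimum count 10; TMM; prior count 2; glmQLFTest, two-sided, Benjamini-Hochberg, threshold 0.05), 7 ChIP libraries in one fit, 8 inputs in another and 15 libraries for ChIP less input. SE is the unshrunk log2 fold change divided by the square root of F. Scripts were tested on simulated data. DESeq2 1.42.0 and the other alternatives are compared in the closing section. Named were all windows of the 3 genes, the nearest 2 symbols on each side, called neighbours, the 5 most alike symbols and fixed lists; CD300C, RPL38, LINC02074, ENSG00000266106 and ENSG00000264659 were added after their values were seen. The genes and lists were chosen with earlier results of these data known. The labels state no pairing by the letters A and B. Correlations of A less B differences between groups were -0.0005 to 0.089, none over 0.1. Counting noise at these read depths lowers such correlations, so they cannot exclude a pairing. Read depth limits precision to a few reads per window, and intervals cover counting error only. RefSeq start regions matched 1 of the 3 genes.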

Additional observations from a re-analysis of the deposited data

How the results depend on the processing

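With DESeq2, 0 start windows were called in 0.1% serum ChIP (2031 at an unadjusted p under 0.05), 10% serum ChIP (1839), 10% serum input (2279), input of both sera (1525) and ChIP less input (5484), 0 peak regions in 0.1% serum (292), and 0 of the 8 KIF19, BTBD17 and GPR142 windows in any contrast. With the 54-read library kept, edgeR called 0 windows in ChIP of either serum, none of the 8 among them, and 0 peak regions in 0.1% serum. BTBD17 and GPR142 then had adjusted p of 0.533 in 10% serum ChIP. In ChIP less input edgeR then called 3 windows, both GPR142 windows among them (adjusted p = 0.0454 at each). Peak-region totals as library sizes, an alternative chosen after seeing the data, gave 2209 calls in 0.1% serum, 4 of the 8 windows among them. The cause of these differences was not tested.

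Leaving out 1 library at a time gave 47 to 145 calls in 0.1% serum ChIP (554 with all), 24 to 27 in 10% serum ChIP (47), 0 to 73 in ChIP less input (14), 0 to 13 in 0.1% serum input (0), 0 to 1368 in 10% serum input (5), 0 to 162 in input of both sera (42), and 0 to 6 and 0 to 1 peak regions in 0.1% and 10% serum (10 and 0). Of the 8 windows, 2 to 4 were called in 0.1% serum ChIP, 2 to 3 in 10% serum ChIP, 0 to 2 in ChIP less input and 0 in input. No ChIP value of the 4 loci changed sign under any alternative run. Input values did so 4 times: over the libraries left out, GPR142 ranged from -0.57 (without ΔLEO1 0.1% input B) to 0.44 in 0.1% serum and from -0.010 (without the same library) to 0.50 in both sera, the first KIF19 start from -0.17 to 0.21 in 10% serum (without ΔLEO1 10% input B), and the inner KIF19 start from -0.35 to 0.40 in 10% serum (without WT 10% input B).

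The labels state no pairing by the letters A and B, and the low correlations of their differences cannot exclude one. With the letter as a replicate block, 573 windows were called in 0.1% serum and 45 in 10% serum, all 8 and 3 of the 8 windows among them, and 2 of the 8 in ChIP less input, so the block changed no call named here. At 3 reads in the ΔLEO1 10% library, depth limits the lower end of the BTBD17 and GPR142 ratios.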
